A study of Homo sapiens with 24 samples.

Results

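The genes described here are the insulin-like growth factor (IGF) binding proteins IGFBP1 to IGFBP7, the receptors IGF1R and IGF2R, and the ligand gene IGF2. They were chosen by family name, and the choice was selected on 1 measured pattern already known from these data, the TPM of IGFBP5 in the Nrf2 and double siRNA groups against scramble. Of the 10 genes, 8 were found among the 24053 Ensembl identifiers of the expression table; IGFBP4 and IGF2 are not analysed here. IGFBP1, at a mean of 0.080 TPM, was below the minimum of 1 TPM for testing, so 7 genes were tested among 13810. TPM is abundance per unit of transcript length with every sample brought to a common sum, so levels can be compared between genes; between samples they also depend on what else fills that sum. Since bulk RNA was sequenced, a change in RNA per cell and a change in the mix of cells cannot be told apart.

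All samples were ARPE-19 cells; this human line was derived from the retinal pigment epithelium and is widely used as its culture model. The 4 groups received scrambled siRNA (scramble), Pink1 siRNA, Nrf2 siRNA, or Nrf2 and Pink1 siRNA together (the double siRNA), each in 3 biological replicates with 2 technical replicates. The sample labels call the treated groups knockout or KD, while the design text names siRNA, which is followed here. A scratch wound appears in the culture protocol, and it is not stated if RNA came from wounded cells. The study's question concerns signalling from PINK1, a kinase that marks damaged mitochondria, to NRF2, the antioxidant transcription factor encoded by NFE2L2.

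IGF1 and IGF2 act through IGF1R, a receptor tyrosine kinase that signals through IRS and SHC adaptors to the AKT and MAP kinase pathways. IGF2R, the cation-independent mannose 6-phosphate receptor, clears IGF2 from the cell surface and carries lysosomal enzymes, and has no kinase domain. IGFBP1 to IGFBP6 bind the IGFs with high affinity in the extracellular space and limit or prolong their access to IGF1R, and proteases that cut them release the ligand. IGFBP7 binds IGFs only weakly. Cultured pigment epithelial cells are known to secrete IGF binding proteins.

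Each siRNA group had less of its target message. PINK1 stood at 53.9 to 57.7 TPM in the scramble samples, at 12.4 to 18.3 TPM with Pink1 siRNA and at 15.3 to 20.5 TPM with the double siRNA. NFE2L2 stood at 74.3 to 89.2 TPM with scramble, at 11.1 to 25.0 TPM with Nrf2 siRNA and at 22.2 to 34.4 TPM with the double siRNA. With Pink1 siRNA alone NFE2L2 was at 64.1 to 71.6 TPM, below every scramble sample but not called (log2 difference -0.23, limma adjusted p = 0.763). In that comparison groups did not overlap for 25.0% of all tested genes. PINK1 was at 50.7 to 66.6 TPM with Nrf2 siRNA alone and overlapped scramble. A single identifier, ENSG00000226958, took between 15.5% (double siRNA replicate 3) and 41.4% (double siRNA replicate 1) of all TPM, so member differences were also computed without it. Of 10 pigment epithelium markers 9 were in the table and 7 reached a mean of 1 TPM, while RPE65, the retinoid isomerase of the mature epithelium, was at a mean of 0 TPM with scramble and at most 0.165 TPM in another group. Of the 3 simple epithelial keratins, KRT8 and KRT18 were at means of 564 to 940 TPM and KRT19 at means of 0.565 to 1.39 TPM. The lists for blood, endothelium, and neurons with photoreceptors each summed to at most 0.675 TPM in any sample, with 1 gene of each list in the table.

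The promoters of IGFBP5 and IGFBP3 are printed because of the levels of these 2 binding proteins. Both were higher in all 6 samples given Nrf2 siRNA, alone or in the double siRNA, than in the 6 samples without it. How many of all genes separated in this way was not computed. Each line gives the 250 bases upstream of the RefSeq start on assembly GRCh38.p14, read 5′ to 3′ on the gene's strand, with every match to a searched motif in capitals.
IGFBP5 (chr2:216695550-216695799, minus strand): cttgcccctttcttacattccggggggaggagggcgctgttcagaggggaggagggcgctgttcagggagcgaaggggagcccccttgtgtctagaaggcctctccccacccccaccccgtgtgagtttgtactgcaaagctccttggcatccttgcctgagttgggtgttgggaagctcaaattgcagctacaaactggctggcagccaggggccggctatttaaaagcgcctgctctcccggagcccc
IGFBP3 (chr7:45921273-45921522, minus strand): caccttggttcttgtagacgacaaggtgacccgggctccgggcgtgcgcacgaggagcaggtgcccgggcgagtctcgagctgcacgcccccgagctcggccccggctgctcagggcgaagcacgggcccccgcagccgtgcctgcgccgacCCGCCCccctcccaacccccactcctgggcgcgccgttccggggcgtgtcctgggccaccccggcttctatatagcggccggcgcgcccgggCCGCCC
Each motif was searched on both strands, and its frequency is given over the 35116 RefSeq promoter windows of that length. The core of the antioxidant response element bound by NRF2, TGACNNNGC, occurs in 10.9% of them. The AP-1 site, TGANTCA, whose matches can overlap those of the former, occurs in 6.57%. The TATA box was searched as TATAAA and occurs in 10.7% of windows. The GC box was searched as GGGCGG and occurs in 42.6%. A FOXO site of letters GTAAACA is in 2.98% of windows, and the hypoxia response core ACGTG in 18.5%. The IGFBP5 window holds none of the 6 motifs. The capitals in IGFBP3 mark 2 GC boxes on the opposite strand, 98 to 93 and 6 to 1 bases upstream of the start. The IGFBP3 window is richer in G and C (76.0%) than that of IGFBP5 (61.2%), and the median over all windows is 58.0%. Of the 10 genes, 7 have an entry in the RefSeq promoter table; 0 of these 7 hold the antioxidant response core or the AP-1 site, 6 hold a GC box, 2 (IGF1R and IGF2R) hold the hypoxia core, 1 (IGFBP4) the TATA box and 1 (IGFBP6) the FOXO site.

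The binding proteins spanned a wide range of levels. With scramble, IGFBP7 had the highest level at 1371 ± 132 TPM (SD, n = 3), rank 62 of 24053 genes by mean TPM, followed by IGFBP3 at 400.4 ± 102 TPM (rank 217) and IGFBP6 at 222 ± 65.1 TPM (rank 406). Within the scramble group the ranges of these 3 genes did not overlap. IGF2R stood at 33.3 ± 1.52 TPM, IGF1R at 12.8 ± 1.72 TPM and IGFBP5 at 11.2 ± 0.929 TPM; IGF1R and IGFBP5, neighbours in this order, overlapped. IGFBP2 was at 1.36 ± 0.306 TPM and IGFBP1 between 0 and 0.115 TPM. With the double siRNA IGFBP5 stood at rank 2143, against rank 7090 with scramble, and above both receptors in every sample.

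**Figure D1:**
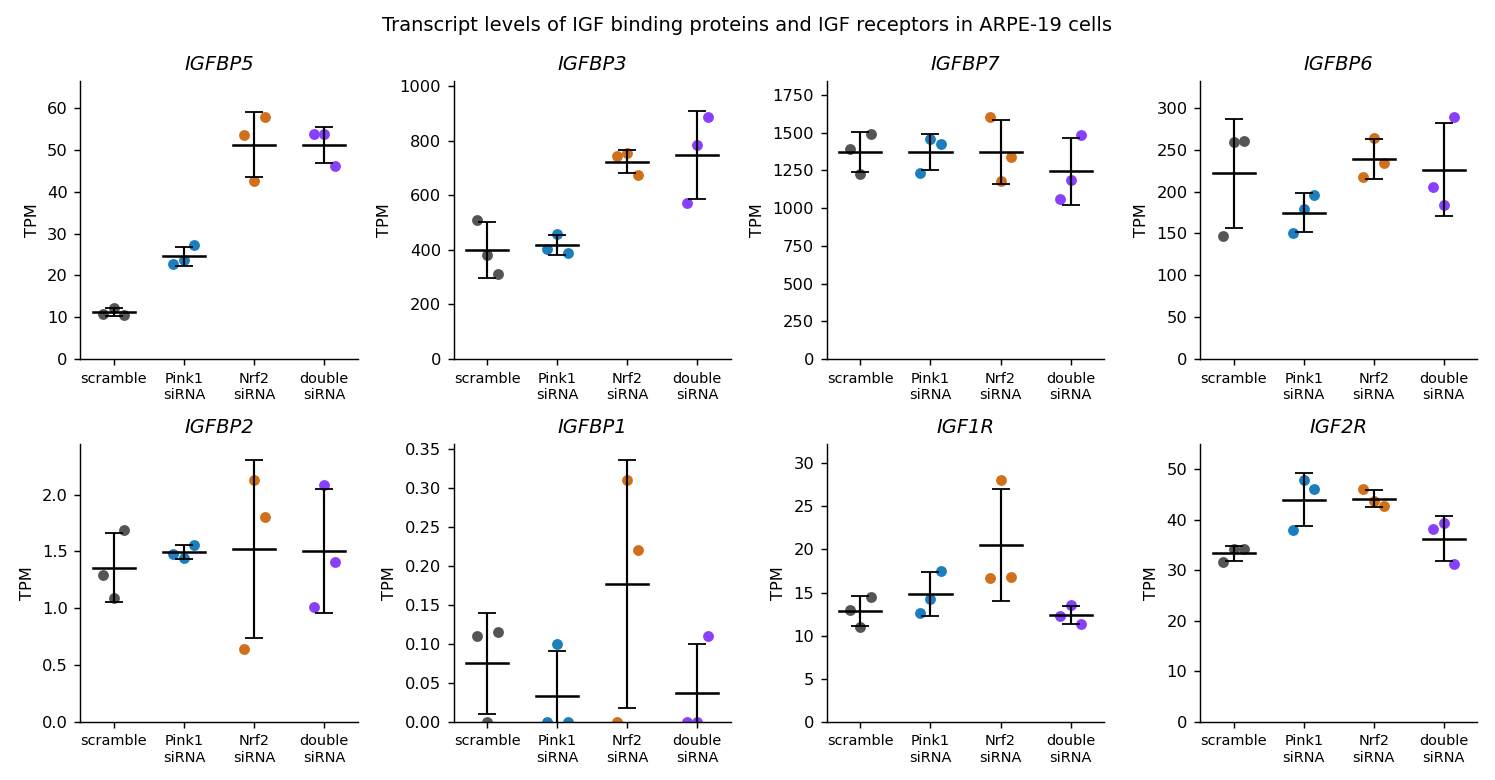
TPM of the 8 genes in the table by siRNA group. Points are biological samples (mean of 2 technical replicates), horizontal lines are group means and bars are ± 1 SD (n = 3), drawn from 0 upward. IGFBP5 steps from 11.2 to 24.6 to 51.3 TPM across scramble, Pink1 siRNA and Nrf2 siRNA, while IGFBP7 stays between 1058 and 1602 TPM in all samples.

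IGFBP5, a matrix-associated binding protein that also carries a nuclear localization sequence, was at 10.9, 12.2 and 10.4 TPM in scramble replicates 1 to 3. With Pink1 siRNA it was at 22.8, 23.7 and 27.2 TPM. With Nrf2 siRNA it was at 53.5, 42.5 and 57.8 TPM, and with the double siRNA at 53.7, 53.7 and 46.2 TPM. The scramble, Pink1 siRNA and Nrf2 siRNA groups occupied 3 ranges with no overlap, and the double siRNA lay within the range of Nrf2 siRNA alone. The mean was 4.59 times the scramble mean with Nrf2 siRNA and 4.58 times with the double siRNA. These 2 differences (2.09 and 2.10 on the log2(TPM + 1) scale) led to the choice of the family and are given without a test.

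IGFBP5 also rose with Pink1 siRNA alone, to 2.20 times the scramble mean (log2 difference 1.07, SE 0.149, limma adjusted p = 0.00728). The scramble samples in this test are the ones that helped to choose the family, so its adjusted p-values are description only. It was the only one of the 7 tested members called (adjusted p under 0.05 over all genes) in this comparison, in which 0.471% of all tested genes were called. The call ended without scramble replicate 1 (log2 difference 1.05, adjusted p = 0.0501) and without scramble replicate 3 (1.02, adjusted p = 0.0509).

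IGFBP5 was higher with the double siRNA than with Pink1 siRNA, by 1.03 on the log2 scale (SE 0.149, limma adjusted p = 0.0311). IGFBP5 was 1 of 6 genes called in this comparison, which is 0.0434% of those tested. The call did not hold without Pink1 siRNA replicate 1, 2 or 3 (adjusted p = 0.230, 0.183 and 0.0723), without double siRNA replicate 2 (0.218), with each technical replicate alone (0.0722 and 0.0515), with the replicate number as a block (0.133) or with only the groups compared in the fit (0.337), at log2 differences of 0.98 to 1.104. The double siRNA differed from Nrf2 siRNA alone by 0.0068, with a 95% interval from -0.32 to 0.33. Directly compared, IGFBP5 was lower with Pink1 siRNA than with Nrf2 siRNA (log2 difference -1.02, limma adjusted p = 0.00854), in a comparison with 0.992% of genes called. That call ended without Nrf2 siRNA replicate 3 (-0.93, adjusted p = 0.0561), without Pink1 siRNA replicate 2 (-1.002, adjusted p = 0.0531) and with only these 2 groups in the fit (adjusted p = 0.0985). The double siRNA and Nrf2 siRNA arms of these comparisons are samples whose IGFBP5 values helped to choose the family. The adjusted p-values of IGFBP5 here are therefore description only.

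IGFBP3, the main carrier of IGFs in serum, was at 511, 380.2 and 310.3 TPM with scramble and at 404, 457 and 388 TPM with Pink1 siRNA. It was at 742, 754 and 674 TPM with Nrf2 siRNA and at 571, 783 and 886 TPM with the double siRNA. All 6 samples given Nrf2 siRNA lay above all 6 samples without it. The share of all genes that separated in this way was not computed. The log2 difference from scramble was 0.88 with Nrf2 siRNA (SE 0.199, limma adjusted p = 0.0864) and 0.90 with the double siRNA (adjusted p = 0.0591), and neither was called. Against Pink1 siRNA the double siRNA gave 0.82 (adjusted p = 0.292), and Pink1 siRNA against Nrf2 siRNA gave -0.80 (adjusted p = 0.0883).

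The call of IGFBP3 depended on the scaling. After median-of-ratios rescaling it was called higher with Nrf2 siRNA (0.85, adjusted p = 0.0343) and with the double siRNA (0.88, adjusted p = 0.0178). Without ENSG00000226958 it was called in the same comparisons (0.86, adjusted p = 0.0347, and 0.80, adjusted p = 0.0322), and without double siRNA replicate 1 the double siRNA gave 1.08 (adjusted p = 0.0200). With a minimum of 5 TPM the double siRNA gave an adjusted p of 0.0429. Pink1 against Nrf2 siRNA was called lower after the rescaling (-0.81, adjusted p = 0.0284) and without ENSG00000226958 (-0.85, adjusted p = 0.0227). Double siRNA replicate 1, the lowest of its group for IGFBP3, is also the sample in which ENSG00000226958 took the largest share of TPM, and replicate 3, the highest, is the one in which it took the smallest. The other groups did not share this order. Nrf2 siRNA replicate 2 had the largest share of its group (38.6%) and its highest IGFBP3 (754 TPM). The smallest shares with Pink1 siRNA and scramble, both in replicate 3 (24.9% and 32.4%), went with the lowest IGFBP3 of the group (388 and 310.3 TPM). With 3 samples a group, a link between this share and the IGFBP3 level was not tested. Pink1 siRNA against scramble gave a log2 difference of 0.084 (95% interval -0.35 to 0.51).

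IGFBP7, a secreted protein of the extracellular matrix, was at 1395, 1229 and 1489 TPM with scramble, 1233, 1456 and 1425 TPM with Pink1 siRNA, 1602, 1178 and 1336 TPM with Nrf2 siRNA, and 1058, 1186 and 1486 TPM with the double siRNA. The 4 groups overlapped. The difference from scramble was 0.00054 with Pink1 siRNA (95% interval -0.37 to 0.37), -0.0063 with Nrf2 siRNA (-0.37 to 0.36) and -0.15 with the double siRNA (-0.52 to 0.22), on the log2 scale.

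IGFBP6, which prefers IGF2 to IGF1, was at 147, 259 and 260.2 TPM with scramble, 150.1, 179 and 196 TPM with Pink1 siRNA, 218, 264 and 234 TPM with Nrf2 siRNA, and 206, 183 and 289 TPM with the double siRNA. Scramble replicate 1 was lower than every Pink1 siRNA sample, and the other 2 scramble samples were higher than all of them. Only Pink1 siRNA against Nrf2 siRNA gave groups that did not overlap (log2 difference -0.45, SE 0.230, limma adjusted p = 0.510). IGFBP2 stayed between 0.640 and 2.13 TPM. Its SD on the log2 scale was 0.41 between single technical replicates. Between biological samples, each a mean of 2 technical replicates, it was 0.31. IGFBP1, the acutely regulated binding protein made mainly by liver, was listed at 0 in 6 of 12 samples and reached 0.310 TPM at most.

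As a share of the summed TPM of the 6 binding proteins in the table, the make-up differed between samples with and without Nrf2 siRNA. IGFBP7 made up 65.3% to 71.9% in the 6 scramble and Pink1 siRNA samples and 52.6% to 61.2% in the 6 samples given Nrf2 siRNA. IGFBP3 made up 15.0% to 24.7% in the former and 28.4% to 35.4% in the latter. For both genes these ranges did not overlap, and no background over all genes was computed for this. IGFBP5 had a share of 0.560% ± 0.0783 with scramble, 1.24% ± 0.109 with Pink1 siRNA, 2.15% ± 0.318 with Nrf2 siRNA and 2.33% ± 0.574 with the double siRNA (SD, n = 3). The summed level was 2006 ± 108, 1989 ± 159, 2387 ± 201 and 2269 ± 413 TPM in the same order, and the double siRNA overlapped every other group. A share does not depend on the scaling of a sample, so ENSG00000226958 does not enter it. Shares were not tested, since IGFBP5 enters the sum.

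**Figure D2:**
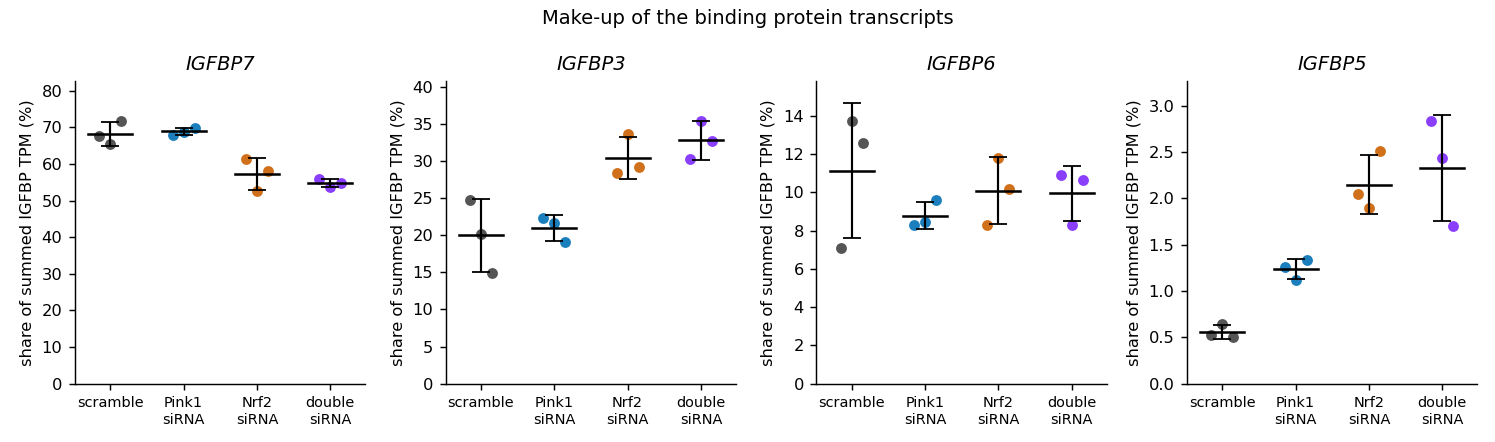
Share of the summed binding protein TPM taken by IGFBP7, IGFBP3, IGFBP6 and IGFBP5, in percent, by siRNA group, with points for samples and mean ± 1 SD (n = 3). The share of IGFBP7 is at least 65.3% in every sample without Nrf2 siRNA and at most 61.2% in every sample with it.

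IGF1R was at 13.0, 11.03 and 14.5 TPM with scramble, 12.6, 14.3 and 17.6 TPM with Pink1 siRNA, 16.7, 28.1 and 16.8 TPM with Nrf2 siRNA, and 12.3, 13.5 and 11.3 TPM with the double siRNA. The 3 Nrf2 siRNA samples lay above all scramble samples and all double siRNA samples, with replicate 2 far above the other two. The log2 difference was 0.60 for Nrf2 siRNA against scramble (SE 0.202, limma adjusted p = 0.232) and -0.65 for the double against Nrf2 siRNA (adjusted p = 0.472), and neither was called. Without Nrf2 siRNA replicate 2 these were 0.37 and -0.41.

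IGF2R was at 31.6, 34.2 and 34.2 TPM with scramble, 38.0, 47.8 and 46.0 TPM with Pink1 siRNA, 46.0, 43.7 and 42.7 TPM with Nrf2 siRNA, and 38.2, 39.3 and 31.2 TPM with the double siRNA. Both single siRNA groups lay above scramble in all samples, and the double siRNA overlapped scramble. The log2 differences from scramble were 0.38 with Pink1 siRNA (SE 0.140, limma adjusted p = 0.280), 0.40 with Nrf2 siRNA (adjusted p = 0.258) and 0.11 with the double siRNA (adjusted p = 0.780). None was called. For this gene the SD between technical replicates (0.14, log2) was as large as that between biological samples (0.13).

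**Figure D3:**
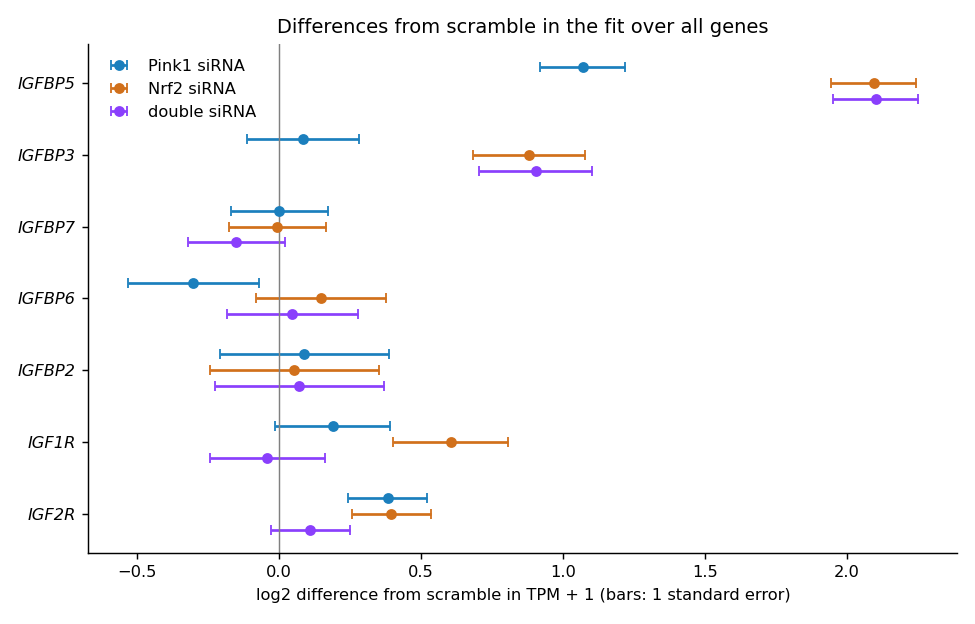
Fitted log2 difference in TPM + 1 from scramble for the 7 tested genes, with bars of 1 standard error, for the 3 siRNA groups. IGFBP5 lies at 1.07 with Pink1 siRNA and near 2.1 with the other 2 groups, IGFBP3 near 0.9 with the same 2 groups, and IGFBP7 near 0.

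Without IGFBP5, whose values chose the family, 6 tested members remain. Limma called 0 of these 6 with Pink1, Nrf2 or double siRNA against scramble, and 1, 3 and 1 had an unadjusted p under 0.05. The share of all genes under that unadjusted p was not computed. Such counts, here and for the interaction and the lists below, therefore have no background to be read against. The share of all genes called was 0.471% with Pink1 siRNA, 0.333% with Nrf2 siRNA and 0.753% with the double siRNA. The same shares stand beside the counts of called genes against scramble in the lists below. Groups did not overlap for 1 (IGF2R), 3 (IGFBP3, IGF1R and IGF2R) and 1 (IGFBP3) of the 6, against 25.0%, 22.9% and 18.1% of all tested genes. The median difference of the 6 was 0.086, 0.27 and 0.059, against 0.022, 0.016 and 0.0059 over all genes. In the double against Nrf2 siRNA limma called 0 of 7 members, with 1 at an unadjusted p under 0.05 (IGF1R), where 0.0145% of all genes were called; 2 of 7 members did not overlap, against 9.49% of genes. Of the 6 members other than IGFBP5, 1 did not overlap for the double against Pink1 siRNA (8.86% of genes) and 2 for Pink1 against Nrf2 siRNA (18.8% of genes).

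The interaction asks whether the 2 siRNAs together gave what their single differences add up to. On the log2 scale it was -1.06 for IGFBP5 (SE 0.211), -0.83 for IGF1R (SE 0.286) and -0.67 for IGF2R (SE 0.197), so each stood lower with the double siRNA than the sum of both single differences. The limma adjusted p was 0.271, 0.783 and 0.671. These were the 3 of 7 members with an unadjusted p under 0.05, and limma called 0 members and 0% of all genes. All 12 samples enter this contrast, those that chose the family included, so the p-values of IGFBP5 are description only. For IGFBP3 the interaction was -0.060 (95% interval -0.67 to 0.55).

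**Figure D4:**
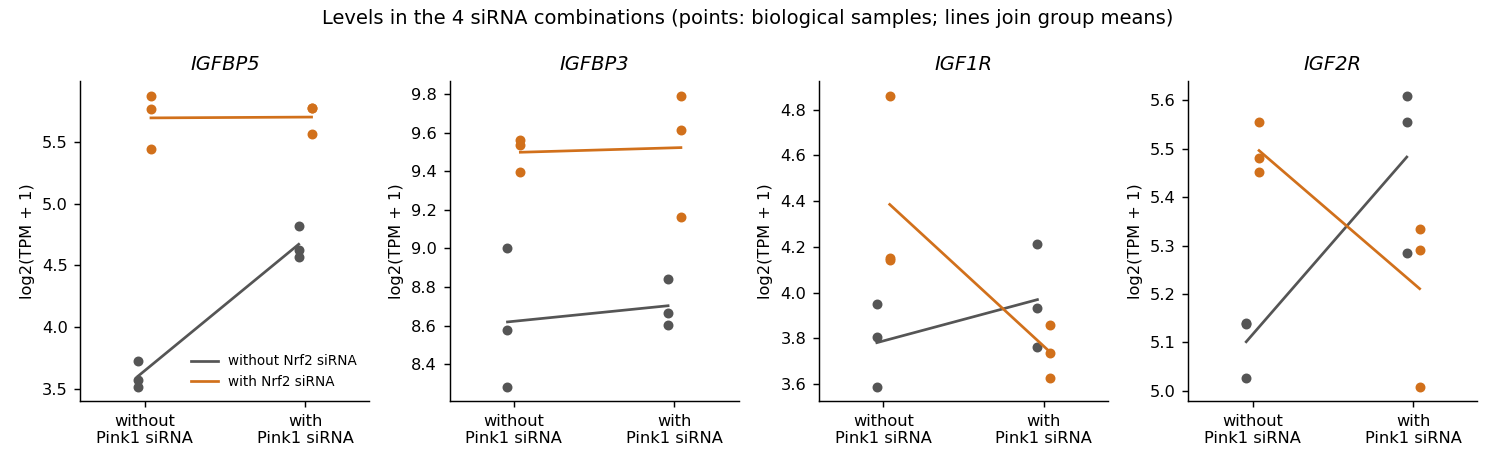
Levels of IGFBP5, IGFBP3, IGF1R and IGF2R as log2(TPM + 1) without and with Pink1 siRNA, with grey for samples without Nrf2 siRNA and orange for samples with it; lines join group means of 3 samples and the axes do not start at 0. The lines are near parallel for IGFBP3 (interaction -0.060), flat with Nrf2 siRNA for IGFBP5 (0.0068), and cross for IGF1R and IGF2R.

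The genes whose levels followed IGFBP5 most closely over the 12 samples, among tested genes averaging 5 TPM or more, were SLC25A23, a mitochondrial carrier (Pearson r of log2(TPM + 1) 0.964), KLF7, a transcription factor (0.922), and PLOD1, a collagen lysyl hydroxylase (0.920). SLC25A23 was at means of 53.5, 72.4, 87.5 and 83.6 TPM, KLF7 at 15.2, 21.4, 27.6 and 29.9 TPM, and PLOD1 at 74.6, 119.9, 142 and 154 TPM, with scramble, Pink1, Nrf2 and double siRNA. The 12 points share their siRNA group, so r is a description.

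Proteases that cut binding proteins, with their inhibitors, formed a list of 19 genes of which 12 were tested. MMP2 was among the results known when the lists were chosen, so its adjusted p-values are description only. MMP2, a gelatinase, was called higher with Nrf2 siRNA (38.8 ± 3.15 to 86.0 ± 6.63 TPM, log2 difference 1.13, limma adjusted p = 0.00211) and with the double siRNA (66.2 ± 4.06 TPM, 0.76, adjusted p = 0.0192). The other 11 did not pass in either comparison. With Pink1 siRNA limma called 0 of 12, with 3 at an unadjusted p under 0.05; CTSD, the lysosomal protease cathepsin D, stood at 1711 ± 114 and 2919 ± 467 TPM (adjusted p = 0.128) and PRSS23 at 769 ± 52.8 and 744 ± 71.1 TPM. MMP2 was also higher with the double than with Pink1 siRNA (0.998, adjusted p = 0.0201) and lower with Pink1 than with Nrf2 siRNA (-1.37, adjusted p = 0.000384). The call for the double against Pink1 siRNA was lost with the replicate block, technical replicate 1 alone or only the groups compared. It was also lost without Pink1 siRNA replicate 1 or 3. In each of these fits 0 of all genes were called higher. For the double siRNA against scramble, MMP2 was no longer called when scramble replicate 1, 2 or 3 was left out (0.78, 0.69 and 0.80, adjusted p = 0.0615, 0.117 and 0.0639), with only the groups compared (adjusted p = 0.147) or with technical replicate 1 alone (adjusted p = 0.160). PLAT, tissue plasminogen activator and named after its value was seen, was lower with Pink1 than with Nrf2 siRNA (5.58 to 6.56 against 12.2 to 15.8 TPM, log2 difference -1.02, adjusted p = 0.0383). The median of the list was -0.054, 0.24 and 0.088 with Pink1, Nrf2 and double siRNA.

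Among 10 tested carriers and surface partners of 11 listed, FN1, the fibronectin that binds IGFBP3 and IGFBP5 in the matrix, was called higher with the double siRNA (378 ± 16.4 to 881 ± 306 TPM, log2 difference 1.17, limma adjusted p = 0.0340). The call held in 1 of 6 fits that left out a replicate, the one without double siRNA replicate 1; without replicate 3, the highest, the difference was 0.90 (adjusted p = 0.0615). It was also lost with no filter on low values (adjusted p = 0.0846), with only the groups compared (0.240) and with technical replicate 1 or 2 alone (0.0844 and 0.0779). Since FN1 was among the results known when the lists were chosen, its adjusted p-values are description only. None of the 10 was called with Pink1 or Nrf2 siRNA (limma; 0 and 3 at an unadjusted p under 0.05), where FN1 stood at 454 ± 89.3 and 639 ± 125 TPM and the integrin ITGB1 at 408 ± 66.4 and 528 ± 27.0 TPM, against 437 ± 17.5 TPM with scramble.

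Of 17 receptor adaptors and attenuators 14 were tested. NEDD4 was among the results known when the lists were chosen, so its adjusted p-values are description only. NEDD4, a ubiquitin ligase that acts on IGF1R and insulin receptor signalling with GRB10, fell with Pink1 siRNA (9.44 ± 1.05 to 4.41 ± 0.672 TPM, log2 difference -0.95, limma adjusted p = 0.0220). MDM2, a ubiquitin ligase best known for p53 and also reported to act on IGF1R, fell with the double siRNA (88.0 ± 13.4 to 47.7 ± 13.0 TPM, -0.89, adjusted p = 0.0453). Each call held in 1 of 6 fits that left out a replicate, for NEDD4 the one without Pink1 siRNA replicate 2 and for MDM2 the one without double siRNA replicate 2. In the other 5 the adjusted p reached up to 0.128 for NEDD4 and 0.187 for MDM2, at differences of -0.998 to -0.87 and -0.96 to -0.71. Both calls were also lost with no filter on low values (adjusted p = 0.0559 and 0.0781), with only the groups compared (0.0694 and 0.302) and with technical replicate 1 alone (0.0926 and 0.156) or 2 alone (0.0598 and 0.0974). That of MDM2 ended as well with a pseudocount of 5 (0.0509) and with the replicate block (0.0712), and the NEDD4 difference was -0.62 with a pseudocount of 5 (adjusted p = 0.0279). With Nrf2 siRNA limma called 0 of 14, with 2 at an unadjusted p under 0.05; RACK1 stood at 1700 ± 213 TPM and SHC1 at 114 ± 31.6 TPM, against 1810 ± 117 and 84.8 ± 3.13 TPM with scramble. NEDD4 was also lower with Pink1 than with Nrf2 siRNA (-0.98, adjusted p = 0.0127).

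Other parts of the pathway gave no limma call against scramble. INSR, the insulin receptor and the 1 tested gene among IGF1, INS, INSR and INSRR, was at means of 3.62 to 4.75 TPM, and IGF1 reached 0.740 TPM at most. Of 3 IGF2 mRNA-binding proteins 2 were tested; with Pink1, Nrf2 and double siRNA 0, 1 and 0 had an unadjusted p under 0.05. The scramble level of IGF2BP2 was 22.3 ± 1.76 TPM and its Nrf2 siRNA level 30.1 ± 4.70 TPM; for IGF2BP3 these were 5.59 ± 1.57 and 7.83 ± 3.72 TPM. For secreted proteins with an IGFBP domain, 4 of 8 were tested, with unadjusted counts of 0, 0 and 1; CCN1 was at means of 296 to 386 TPM and CCN2 at 228 to 383 TPM. FOXO factors and FOXO-responsive genes had 7 of 12 tested and 1 below that unadjusted p in each comparison; CITED2 was at means of 73.8 to 89.4 TPM and KLF6 at 38.8 to 44.5 TPM.

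Levels of some markers also differed between the groups. As background to the non-overlaps below, groups did not overlap for 25.0%, 22.9% and 18.1% of all tested genes. These shares are for Pink1, Nrf2 and double siRNA against scramble. The pigment enzymes TYR and TYRP1 were called higher in each comparison with scramble, and they were 2 of the 7 pigment epithelium markers tested. Of all tested genes 0.471%, 0.333% and 0.753% were called with Pink1, Nrf2 and double siRNA. TYR was at means of 0.40 TPM with scramble and 3.7, 2.6 and 4.1 TPM in that order. It passed the 1 TPM filter only through the siRNA groups, so its calls are description only. TYRP1 was at means of 9.9, 45.5, 23.2 and 26.6 TPM with scramble, Pink1, Nrf2 and double siRNA. With Pink1, Nrf2 and double siRNA the log2 differences were 0.11, -0.20 and -0.016 for BEST1 and -0.025, 0.43 and -0.23 for PMEL. They were 0.51, 0.13 and 0.46 for MITF and 0.25, 0.21 and 0.27 for OTX2, and none of these was called. LRAT, not tested, was at means of 1.12 TPM with scramble and 0.790, 0.838 and 0.902 TPM in the same order. RLBP1, a retinoid-binding protein, was at means of 0.725 TPM with scramble, 1.37 with Pink1, 2.20 with Nrf2 and 2.63 with double siRNA, apart from scramble in the last 2 groups (log2 differences 0.92 and 1.09, limma adjusted p = 0.226 and 0.129). It too passed the 1 TPM filter only through the siRNA groups. With Nrf2 siRNA the simple epithelial keratins KRT18 (811 ± 69.3 to 564 ± 93.05 TPM, -0.53, adjusted p = 0.225) and KRT8 (-0.27, adjusted p = 0.537) were lower in all samples, and with Pink1 and double siRNA both overlapped scramble. The 4 fibroblast and smooth muscle markers summed to 118 to 140.4 TPM with scramble, 143 to 189 TPM with Pink1 siRNA, 132 to 170 TPM with Nrf2 siRNA and 165 to 196 TPM with the double siRNA; of the 3 tested none was called by limma (1, 1 and 2 at an unadjusted p under 0.05). ACTA2, smooth muscle actin, was above scramble in all samples of each siRNA group, at means of 83.2, 109, 98.8 and 127 TPM with scramble, Pink1, Nrf2 and double siRNA (log2 differences 0.38, 0.25 and 0.60, adjusted p = 0.311, 0.549 and 0.0895). COL1A1, a collagen chain, was at means of 1.59, 3.38, 4.35 and 6.45 TPM (0.83, 0.996 and 1.62, adjusted p = 0.418, 0.309 and 0.0819), apart from scramble with the double siRNA. PDGFRB was at means of 42.5 to 48.1 TPM and PDGFRA at or below 0.288 TPM. The part of these markers in the IGFBP5 and IGFBP3 levels was not tested.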

How the data were processed

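RNA from 12 biological samples of ARPE-19 cells was sequenced as stranded, paired mRNA libraries, per the labels' protocols. The deposited values are TPM computed by the authors for 24053 Ensembl identifiers. The submitters' processing notes name STAR, RSEM, edgeR, GRCh37 and hg19; their versions and roles were not given in the sources used here. TPM holds no read number, so depth is unknown and no counting interval is given. Technical replicates were averaged. Genes averaging 1 TPM or more were tested on log2(TPM + 1) with limma 3.58.1 in R 4.3.3 (4 groups, intensity trend, 8 residual and 4.93 prior degrees of freedom, two-sided), with Benjamini-Hochberg adjustment over 13810 genes and a call below 0.05, in 7 comparisons; fold and log2 values are thus on the TPM + 1 scale and understate changes at low levels. Intervals are 95%. The fit was tested on simulated data. With 3 against 3 samples an exact permutation test cannot go below p = 0.1.

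The members, gene lists and marker lists were chosen with earlier results of these data known. All members are named; of each list, called genes in comparisons with scramble are named, up to 4, or else the 2 with the highest mean; others are marked. MMP2, FN1 and NEDD4 were among the results known. Labels do not say whether biological replicates were separate cultures, so p-values measure the spread between these samples. Replicate numbers recur across groups, but same-numbered samples did not deviate together (r from -0.085 to 0.113 over 18 pairs, 1 above 0.1), so no pairing was used. Alternatives were median-of-ratios rescaling, pseudocounts 0.1 and 5, a filter at 5 TPM or none, removal of ENSG00000226958, only the compared groups, a replicate block, single technical replicates and leaving out each sample. Promoter sequences are from RefSeq on GRCh38.p14, not the build of the files, for which no coordinates are printed.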

Additional observations from a re-analysis of the deposited data

Results flagged for a closer look

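IGF2R drew attention because Pink1 siRNA went with opposite directions in the 2 backgrounds. Without Nrf2 siRNA, all 3 Pink1 siRNA samples (38.0 to 47.8 TPM) lay above all 3 scramble samples (31.6 to 34.2 TPM). With Nrf2 siRNA, all 3 double siRNA samples (31.2 to 39.3 TPM) lay below all 3 samples with Nrf2 siRNA alone (42.7 to 46.0 TPM). Groups did not overlap for 25.0% of all tested genes in the former comparison and for 9.49% in the latter. The SD of IGF2R on the log2 scale was 0.14 between single technical replicates and 0.13 between biological samples. Each biological sample is a mean of 2 technical replicates, so these are unlike measures. The interaction was -0.67 on the log2 scale (SE 0.197, unadjusted p = 0.00497), and it was not called by limma over all genes (adjusted p = 0.671; 0.267 to 0.996 over its alternatives). Groups of 3 are too small for the screen for outlying samples.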

How the results depend on the processing

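The number of members called was 1 for the double against Pink1 siRNA and 0 with only the groups compared, with the replicate block, and with technical replicate 1 or 2 alone; leaving out a replicate gave 0 to 1. For the double siRNA against scramble it was 1, and 2 (IGFBP3 added) after median-of-ratios rescaling, with a minimum of 5 TPM and without ENSG00000226958, and leaving out a replicate gave 1 to 2. For Nrf2 siRNA against scramble it was 1, and 2 after that rescaling and without that identifier. For Pink1 against Nrf2 siRNA it was 1, then 2 under the same pair of settings and 0 with only the groups compared, and leaving out a replicate gave 0 to 1. Pink1 siRNA against scramble gave 0 to 1. With the main settings, the 1 member called in each of these comparisons is IGFBP5. Its values with Nrf2 and double siRNA against scramble chose the family. The other comparisons reuse samples of that choice, so all these counts are description only where IGFBP5 enters them. The cause of the changes in count was not tested. Among member calls, the replicate block changed that of IGFBP5 for the double against Pink1 siRNA (limma adjusted p = 0.133) and no other. Among pathway list genes called against scramble, the block changed that of MDM2 (0.0712) and no other. With the block, 0 of all genes were called higher for the double against Pink1 siRNA, so the MMP2 call there also ended. Other calls of list genes between siRNA groups, and calls of markers, were not tracked gene by gene over the settings. The sign of the double against Nrf2 siRNA was not fixed for IGFBP3 (-0.063 without ENSG00000226958, and -0.11 to 0.20 when a replicate was left out) or IGFBP5 (-0.0072 with technical replicate 2 alone, -0.079 without ENSG00000226958, and -0.12 to 0.097 when a replicate was left out). Of 29 further member differences, 18 changed sign in some setting and 0 were called by limma in any (lowest adjusted p = 0.176). Counts of all called genes also moved: with median-of-ratios rescaling 171, 145 and 333 were called with Pink1, Nrf2 and double siRNA, against 65, 46 and 104. Without ENSG00000226958 the share of calls that were higher was 50.8%, 57.8% and 42.1%, against 75.4%, 65.2% and 62.5%. What depth limits cannot be read from TPM.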

Other observations

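On assembly GRCh38.p14, IGFBP2 and IGFBP5 are next to each other among protein-coding genes on chromosome 2, and IGFBP1 and IGFBP3 on chromosome 7. In neither pair did both genes show the same levels: IGFBP2 was at means of 1.36, 1.49, 1.52 and 1.502 TPM with scramble, Pink1, Nrf2 and double siRNA, where IGFBP5 was at 11.2, 24.6, 51.3 and 51.2 TPM. IGFBP1 did not exceed 0.310 TPM in any sample, where IGFBP3 was at 310.3 to 886 TPM.

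The members differed in how far samples of a group spread. On the log2 scale the SD between biological samples within a group was 0.15 for IGFBP5, 0.25 for IGFBP3, 0.19 for IGFBP7, 0.31 for IGFBP6, 0.26 for IGF1R and 0.13 for IGF2R. Between single technical replicates it was 0.072, 0.026, 0.019, 0.064, 0.13 and 0.14 in the same order.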
